A study of Saccharomyces cerevisiae with 12 samples.

Results

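The genes described here are 50 protein-coding genes of budding yeast, Saccharomyces cerevisiae, listed as intron-containing and outside the ribosomal protein families. In the reference annotation used here, 49 of the 50 have an intron in the coding sequence. The 50 genes act in the cytoskeleton, vesicle trafficking, the ubiquitin system, RNA and nuclear functions, signalling, mitochondria and metabolism. They were chosen by systematic name, and all rows of a table of unannotated splice forms whose host was one of them were taken. Such a form is a pair of positions that sequencing reads joined and that is not an annotated intron. Of the 50 genes, 42 had at least 1 listed form, and together they held 131 of the 6195 forms in the table. The 131 forms carried 401 reads, which was 0.0935% of the reads on forms with a coding host and 0.0116% of all reads in the table.

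The study sequenced ribosomal-RNA-depleted total RNA from haploid BY4741 cells with 1 library for each of 6 genotypes at each of 25 °C and 37 °C, so no group had a replicate. By their labels, all 6 strains were MATa his3Δ1 leu2Δ0 met15Δ0 ura3Δ0, and beyond that background they were wild type, set1Δ, set2Δ, prp43-1, set1Δ prp43-1 and set2Δ prp43-1. The growth protocol gives 25 °C for every culture, and the time spent at 37 °C is not given in the sources used here. Whether each strain is a single clone is not given in those sources either.

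Splicing removes an intron in a pair of steps: the 5′ splice site is joined to the branch adenosine, which forms a lariat, and the 3′ splice site, an AG downstream of the branch, is then cut and joined to the first exon. In this yeast the 5′ splice site and the branch sequence, TACTAAC, are strongly conserved, most intron genes have a single intron, and outside the ribosomal protein genes introns are rare. Prp43 is an RNA helicase that takes spliceosomes apart, both after splicing and on RNAs whose splicing has stalled, and prp43-1 is a mutant allele of it. Set1 and Set2 are methyltransferases that modify different lysines of histone H3.

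The libraries held 214055 to 402886 reads on unannotated forms, of which 74.5% to 87.5% lay on SCR1, a noncoding RNA of the protein-targeting machinery. Coding hosts received 25404 to 56868 reads a library, and shares are given over these. Among coding hosts without an intron, 1 form held 137517 of the 405902 reads. The shares therefore depend on that form too, and its effect on them was not tested. Reads of the alpha-specific mating genes (4 listed) numbered 61 at 25 °C and 16 at 37 °C for set1Δ, 38 and 2 for set2Δ, and 99 and 15 for set2Δ prp43-1. They were 0 in the other 6 libraries, whereas the labels give MATa for all strains. Of 7 a-specific genes, 3 had a listed form, with 0 to 6 reads a library. Member results for temperature, prp43-1 and set1 are given below with and without these strains. Both set2Δ strains are among them, so no set2 value could be had without them.

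The annotated introns of the 50 genes set the frame for the new forms. In the reference annotation (sacCer3, R64) 49 of the genes have 53 coding introns, and MTR2, an mRNA export factor, has none. The 5′ end read GTATGT in 43 of the 53 introns. The ends were GT and AG in 52, the exception being COX5B, whose intron starts with GC. The branch sequence TACTAAC was present in 44. The 3′ end was TAG or CAG in 51 and AAG in 2. The median length was 110 nt (56 to 640 nt), and in the 44 introns with the branch sequence the median distance from the branch adenosine to the 3′ end was 32.5 nt (12 to 155 nt).

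Most of the unannotated forms of these genes kept the annotated 5′ splice site and ended elsewhere. Of the 131 forms, 88 in 38 genes did so, with 275 of the 401 reads (68.6%). A further 10 kept the annotated 3′ splice site with a new 5′ end (20 reads), and 4 joined an annotated 5′ site to the 3′ site of the gene's next intron, which skips an exon (34 reads). The remaining forms used neither site: 12 overlapped the intron (21 reads) and 17 lay outside it (51 reads). The sequences below are those of the forms with the most reads of each kind. They are printed in the direction of transcription from the sacCer3 reference.

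In the 7 genes printed next the new 3′ end lay 2 to 17 nt downstream of the annotated one at another AG, which makes a tandem pair of acceptors. Each line starts at the branch sequence, or upstream of the annotated 3′ end where the exact TACTAAC is absent. Capitals mark the branch sequence, the annotated 3′ triplet and then the new 3′ triplet. In ACT1 the overlapping pair is written TAGAG, in which the annotated intron ends with TAG and the unannotated form with the last AG.
SAR1: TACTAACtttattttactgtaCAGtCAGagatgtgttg
NYV1: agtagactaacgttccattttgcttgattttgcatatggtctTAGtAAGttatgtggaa
ACT1: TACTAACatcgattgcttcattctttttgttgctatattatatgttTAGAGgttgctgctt
KIN28: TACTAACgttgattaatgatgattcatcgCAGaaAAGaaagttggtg
LSM7: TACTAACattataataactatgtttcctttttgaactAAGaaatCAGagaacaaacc
ARP2: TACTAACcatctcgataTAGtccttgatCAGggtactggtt
RUB1: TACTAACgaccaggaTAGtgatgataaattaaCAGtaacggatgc

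These windows lie at chrXVI:138841-138878 (SAR1, plus strand), chrXII:327245-327303 (NYV1, minus), chrVI:54366-54426 (ACT1, minus), chrIV:267775-267821 (KIN28, plus), chrXIV:351014-351070 (LSM7, plus), chrIV:399465-399505 (ARP2, plus) and chrIV:733676-733720 (RUB1, minus). In SAR1 the annotated and the new triplet are both CAG, with a single base between them. In NYV1 an annotated TAG is followed by an AAG, and the branch region reads GACTAAC, a single base away from the consensus. In LSM7 the annotated triplet is AAG and the new one CAG. In ARP2 the annotated TAG ends 14 nt after the branch adenosine, and the new CAG ends at 25 nt.

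In COX5B the new end lay 128 nt into the second exon, and in UBC13, SUS1 and LSM2 it lay upstream of the annotated end, inside the intron. They are shown because they carried the most reads among forms whose new end was 20 nt or more away. In the next lines the capitals mark both 3′ triplets and, in COX5B and UBC13, the branch sequence. In COX5B the annotated triplet comes first, and in the other lines the new one does.
COX5B: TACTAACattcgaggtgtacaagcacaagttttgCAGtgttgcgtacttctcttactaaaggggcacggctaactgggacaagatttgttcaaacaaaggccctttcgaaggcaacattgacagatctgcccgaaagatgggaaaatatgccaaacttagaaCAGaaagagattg
UBC13: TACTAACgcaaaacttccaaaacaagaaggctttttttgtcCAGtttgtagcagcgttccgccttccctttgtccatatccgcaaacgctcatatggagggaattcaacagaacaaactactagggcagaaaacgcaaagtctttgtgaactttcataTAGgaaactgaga
SUS1: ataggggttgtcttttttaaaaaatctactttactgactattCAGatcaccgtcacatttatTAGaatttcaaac
LSM2: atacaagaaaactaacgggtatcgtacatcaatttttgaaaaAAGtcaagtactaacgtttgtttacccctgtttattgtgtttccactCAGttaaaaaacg

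These lie at chrIX:155274-155448 (COX5B, plus), chrIV:630013-630183 (UBC13, plus), chrII:462225-462299 (SUS1, plus) and chrII:170713-170814 (LSM2, plus). UBC13 has the longest span from branch adenosine to annotated 3′ end of the set, 155 nt, and its new CAG ends 38 nt after the branch adenosine. In LSM2 the new AAG lies before the TACTAAC of the annotated intron, which is therefore in the part that the unannotated form keeps as exon.

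Exon skipping was listed for the 4 genes of the set with more than 1 annotated intron. The short middle exons of DYN2, the light chain of dynein, and VMA9, a membrane subunit of the vacuolar proton pump, are printed in capitals with 25 bases of intron on each side, because these exons were the ones left out in the most reads.
DYN2: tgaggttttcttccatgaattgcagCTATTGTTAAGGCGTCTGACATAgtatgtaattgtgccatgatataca
VMA9: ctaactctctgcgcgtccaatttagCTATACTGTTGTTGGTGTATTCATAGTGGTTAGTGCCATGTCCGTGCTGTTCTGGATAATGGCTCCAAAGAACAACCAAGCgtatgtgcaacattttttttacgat

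The DYN2 exon (chrIV:1319698-1319720, minus strand) is 23 nt long and the VMA9 exon (chrIII:107111-107191, plus strand) 81 nt, a multiple of 3. The other 2 skipping forms belonged to TAD3, a subunit of the tRNA adenosine deaminase, with 1 read, and SUS1, a subunit of a histone-modifying and an mRNA export complex, with 0 reads. The form of TUB3, alpha-tubulin, with the most reads kept the annotated 3′ site and moved the 5′ site 4 nt downstream, to the second GT of a repeat. Its 5′ region is printed with the annotated and the new GT in capitals.
TUB3: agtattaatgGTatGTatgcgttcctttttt

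This window lies at chrXIII:23638-23668 on the minus strand. TUB3 has a near-identical partner, TUB1, as has UBC4 in UBC5, so the assignment of reads within each of these pairs is uncertain.

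The 88 forms with the annotated 5′ site ended downstream of the annotated 3′ site in 44 cases and upstream in 44, with a median distance of 23.5 nt. Within 20 nt of the annotated site lay 42 of them, with 181 of the 275 reads (65.8%). The new end was an AG in 58 forms with 235 reads (85.5%) and another pair of bases in 30 forms with 40 reads. Among new 3′ triplets CAG was found in 25 forms (129 reads), AAG in 20 (74 reads), TAG in 10 (15 reads) and GAG in 3 (17 reads, all from ACT1). AAG thus made up 20 of the 58 AG ends of unannotated forms, against 2 of 53 annotated ends.

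The tandem acceptors, defined as a new AG up to 20 nt downstream, numbered 16 forms in 14 genes and held 102 reads (37.1%). By this definition the new end lies beyond the annotated AG. In the 46 AG-ending forms with the branch sequence the median distance from branch adenosine to new end was 49.0 nt, and in the 27 forms with another ending it was 21.0 nt, beside 32.5 nt in the annotated introns. The forms are defined by their ends, so these distances are given without a test.

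**Figure D1:**
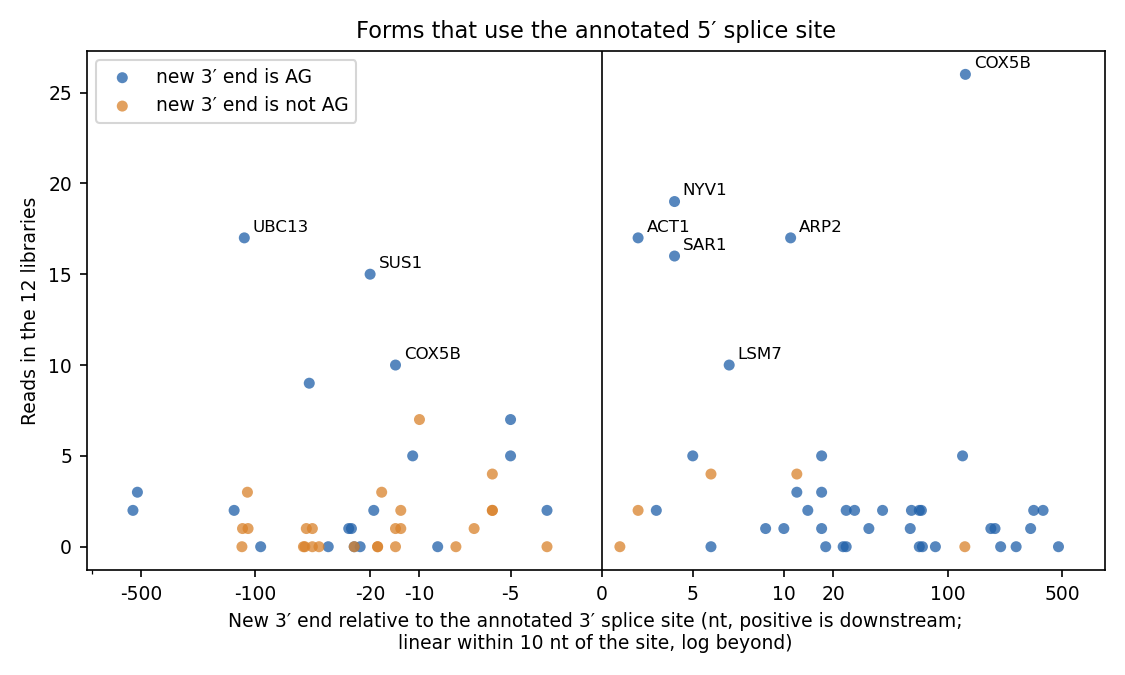
Each point is an unannotated form that keeps the annotated 5′ splice site (88 forms in 38 genes), placed by the distance of its new 3′ end from the annotated 3′ site (horizontal axis, nt, linear within 10 nt and logarithmic beyond) and its reads in the 12 libraries (vertical axis). Blue points end in AG and orange points do not, and the forms with 10 or more reads all end in AG.

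**Figure D2:**
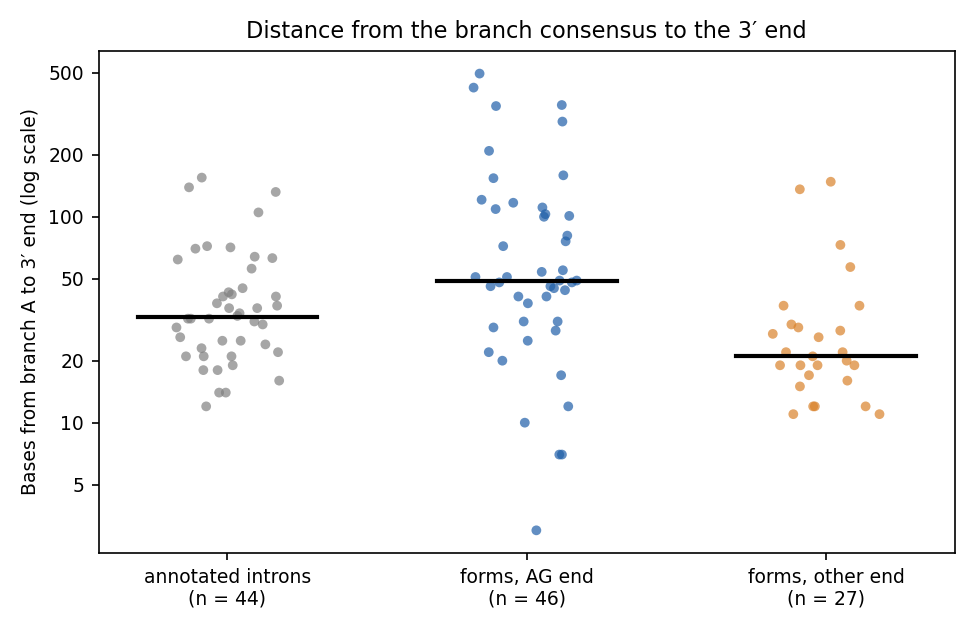
Bases from the branch adenosine of TACTAAC to the 3′ end (vertical log axis) for the 44 annotated introns, 46 AG-ending forms and 27 other forms with that sequence, with bars at the medians. The medians are 32.5, 49.0 and 21.0 nt, and the 3 sets overlap.

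Forms at an annotated 5′ site were also counted in other hosts. The share among the 50 genes was 67.2% (95% Wilson interval 58.7 to 74.6%), against 52.8% (47.6 to 57.9%) for the 358 forms of 133 other non-ribosomal intron genes and 47.3% (43.1 to 51.5%) for the 535 forms of 89 ribosomal protein intron genes. GT and AG ends were found in 50.4% of forms (41.9 to 58.8%), against 46.6% and 38.7%, and in 11.7% of all forms in the table. TACTAAC, searched on the transcribed strand within each form, was present in 71.8%, against 59.5% and 68.8%, and in 2.93% of forms in hosts without an intron. These intervals cover counting error over forms only, forms of 1 gene share its sequence, and no test was made. The median length of 115 nt was near the 105 nt of the other non-ribosomal hosts and below the 363 nt of the ribosomal protein hosts. A form had a median of 1 read, against 2 in both other classes.

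Each form carries a p-value in the deposited table whose meaning is not stated there, and it was used as a description only. It was below 0.05 for 100 of the 131 forms (76.3%), against 64.8% and 58.9% in the other classes. By position it was below 0.05 for 87 of the 88 forms with the annotated 5′ site, for all 4 exon-skipping forms, and for none of the 29 forms with neither site. Forms with the same end sequences could share a value. The ARP2 134 nt, UBC13 151 nt, SAR1 143 nt and LSM7 103 nt forms, from GTATGT to CAG, all had 5.77e-06. The 105 nt form of SFT1, with the same ends and no read, had it too. The split by position is therefore not separate from the end sequences described above. No form was an equally good alignment of an annotated intron, but 67 of the 131 could be moved by up to 7 nt without a change in the joined sequence.

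Reading through the new junctions with the annotated start codon and the gene's other introns removed, 31 of 102 readable forms reached the annotated stop codon, with 61 of 329 reads. Among the 12 readable forms with at least 10 reads, only the VMA9 exon skip did so, giving 46 residues in place of 73. The ACT1, SAR1 and NYV1 tandem forms met a stop after 9, 9 and 10 residues, and the long COX5B form after 5. By contrast, the COX5B form 5 nt shorter reached the stop with 110 of 151 residues, on 5 reads. The 129 nt form of ARP2 did so with 389 residues in place of 391 and the 94 nt form of GOT1, a Golgi membrane protein, with 134 in place of 138, on 4 reads each. Offsets from the annotated 3′ site were a multiple of 3 in 38 of the 88 forms (43.2%, 33.3 to 53.6%), against 25.4% (19.7 to 32.0%) of 189 such forms in other non-ribosomal hosts and 28.5% (23.3 to 34.3%) of 253 in ribosomal protein hosts. Among such forms with at least 10 reads the share was 1 of 9 (11.1%, 1.99 to 43.5%). The other classes then stood at 16.2% and 21.6%, of 37 forms each, so the members were not higher there. No test was made of these differences.

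The reads were spread thinly. No read was listed for 39 of the 131 forms, 47 had reads in a single library, 29 in 2 or 3 libraries and 16 in 4 or more, with 9 as the highest. A single read was all that 34 forms had, 43 forms had 2 to 9 and 15 had 10 or more, of which the smallest held 10 and the largest form below that line held 9. The 10 most-read forms took 174 reads (43.4%) and the 25 most-read forms 287 (71.6%). ACT1, COX5B and NYV1 alone held 141 reads (35.2%).

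The 7 cytoskeleton genes had the most reads of the role groups, 132 on 37 forms, 52 at 25 °C and 80 at 37 °C. ACT1 (YFL039C), actin, had 12 forms with 67 reads, and it was the only host with reads in all 12 libraries. Of the 67 reads, 38 lay on 6 forms outside its intron, while 21 used its annotated 5′ site. ARP2 (YDL029W), a subunit of the complex that nucleates actin branches, had 23 reads, DYN2 (YDR424C) 18, TUB3 (YML124C) 14 and COF1 (YLL050C), the actin-severing cofilin, 7. PFY1 (YOR122C), the actin-binding profilin, had 2 and TUB1 (YML085C) had 1.

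Trafficking and vacuole genes followed with 97 reads on 29 forms, 32 at 25 °C and 65 at 37 °C. NYV1 (YLR093C), the SNARE protein of vacuole fusion, had 31 reads and VMA9 (YCL005W-A) 27. SAR1 (YPL218W), the GTPase that starts the coat of vesicles leaving the endoplasmic reticulum, had 16 reads, all on its tandem form. SEC27 (YGL137W), a coat subunit of vesicles that return to the endoplasmic reticulum, had 10. BOS1 (YLR078C), a SNARE of transport to the Golgi, and GOT1 (YMR292W) had 4 each, ERV41 (YML067C), a vesicle membrane protein, had 3, and YOP1 (YPR028W), which shapes the endoplasmic reticulum, had 2.

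The ubiquitin genes had 42 reads on 17 forms, 18 at 25 °C and 24 at 37 °C. UBC13 (YDR092W), a conjugating enzyme, had 19 of them, and its partner MMS2 (YGL087C) had 3. RUB1 (YDR139C), a ubiquitin-like protein, had 10. The conjugating enzymes UBC4 (YBR082C), UBC8 (YEL012W) and UBC5 (YDR059C) had 5, 4 and 1. RNA and nuclear genes had 53 reads on 22 forms, 18 and 35 at the lower and the higher temperature. SUS1 (YBR111W-A) had 17, the U6 RNA-binding ring proteins LSM2 (YBL026W) and LSM7 (YNL147W) had 11 and 10, TAD3 (YLR316C) had 10 and MPT5 (YGL178W), an mRNA-binding repressor, 5.

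Mitochondrial genes had 49 reads on 13 forms, 10 at 25 °C and 39 at 37 °C. COX5B (YIL111W), the form of cytochrome oxidase subunit used at low oxygen, had 43 of these, ERV1 (YGR029W), a sulfhydryl oxidase, had 5 and RIM1 (YCR028C-A), which binds mitochondrial DNA, had 1. The metabolic genes had 19 reads, 16 on HNT1 (YDL125C), a nucleotide hydrolase, and 3 on EPT1 (YHR123W), a phospholipid synthesis enzyme. The signalling genes had 9: KIN28 (YDL108W), the kinase of a general transcription factor, had 6, MOB1 (YIL106W), a mitotic exit protein, had 2 and PHO85 (YPL031C), a cyclin-dependent kinase, had 1.

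Forms were listed but had no read in any library for 8 genes: GLC7 (YER133W), the catalytic subunit of a protein phosphatase, the SNARE genes SFT1 (YKL006C-A) and SNC1 (YAL030W), UBC12 (YLR306W), QCR10 (YHR001W-A), MOB2 (YFL034C-B), MRPL44 (YMR225C) and SRC1 (YML034W). MRPL44, of the mitochondrial ribosome, and SRC1, of the inner nuclear membrane, each had 4 such forms. No form was listed for 8 others: BET1 (YIL004C), VMA10 (YHR039C-A), UBC9 (YDL064W), QCR9 (YGR183C), PMI40 (YER003C), HNT2 (YDR305C), YSF3 (YNL138W-A) and MTR2 (YKL186C). Reads were therefore seen on 34 of the 50 genes. Of these, 21 had more reads at 37 °C than at 25 °C, 10 had fewer and 3 had equal numbers. These totals are not corrected for library size. The reads of annotated junctions were not analysed here, so a change in how often a site is used and a change in the amount of RNA cannot be told apart in any of the results.

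A list of 45 relatives of the same families gave a view of genes without introns. None of the 45 has an annotated intron. They had 60 forms in 21 genes with 219 reads, and the deposited p-value was below 0.05 for 1 form. Forms were listed for 7 of 11 cytoskeleton relatives, 12 of 19 trafficking relatives and 2 of 9 ubiquitin relatives. The most reads lay on TUB2 (59 on 5 forms) and UBI4 (57 on 14 forms). The 6 intronless LSM genes of that list had no form, while LSM2 and LSM7 had 4 and 2.

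The libraries at 37 °C gave a larger share of reads to the 50 genes than those at 25 °C in every strain. The wild type had 20 reads at 25 °C, which was 0.0613% of coding-host reads (95% Wilson interval 0.0397 to 0.0946%), and 92 at 37 °C, or 0.213% (0.174 to 0.262%). The set1Δ libraries had 29 (0.0827%) and 47 (0.119%) reads, the set2Δ libraries 18 (0.0493%) and 43 (0.14%). Between temperatures the counting intervals of the wild type and set2Δ did not overlap, and those of set1Δ did (0.0576 to 0.119% and 0.0898 to 0.159%).

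In prp43-1 the reads were 12 (0.0401%) and 18 (0.0688%). In set1Δ prp43-1 they were 41 (0.0721%) and 28 (0.0836%). In set2Δ prp43-1 they were 21 (0.053%, 0.0347 to 0.081%) and 32 (0.126%, 0.0892 to 0.178%). The intervals did not overlap between temperatures in set2Δ prp43-1, and they did in prp43-1 and set1Δ prp43-1. The shares at 25 °C ran from 0.0401 to 0.0827% and those at 37 °C from 0.0688 to 0.213%, so the temperatures overlapped across strains although each strain was higher at 37 °C. The mean log2 difference over the 6 strains was 1.01 ± 0.61 (SD, n = 6), a 2.02-fold higher share. Measured in the same way, forms of the other non-ribosomal intron genes differed by 0.22 ± 0.66, with 3 of 6 strains higher. However, 1 form held 7006 of the 16364 reads of that class, so its pooled share depends strongly on that form. In the fits described below, the tested forms and hosts of that class had median log2 fold changes of 0.63 and 0.87 for temperature. The member medians there were 1.13 and 1.18. Forms of ribosomal protein intron genes differed by -0.46 ± 0.35, with 0 of 6 higher. No test was made over the members. Relative to column totals, which SCR1 dominates, the difference was 0.82 ± 1.28 and 4 of 6 strains were higher. Relative to the forms of all other intron genes, ribosomal protein genes included, it was 0.95 ± 0.52 with 6 of 6 higher. As a share of coding-host reads without the 3 strains with alpha-specific reads, it was 0.93 ± 0.80 with 3 of 3 higher.

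**Figure D3:**
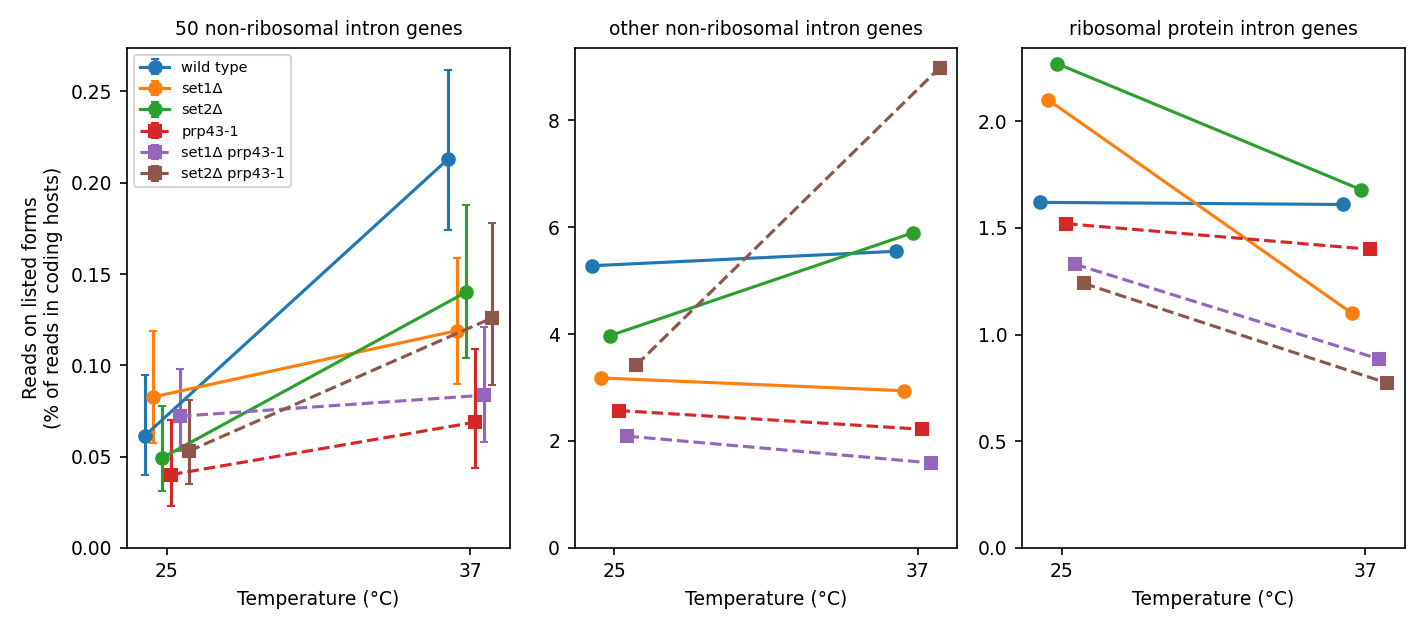
Reads on the listed forms as a percentage of coding-host reads (vertical axes, each from 0) at 25 °C and 37 °C for the 50 genes (left, with 95% Wilson intervals), 96 other non-ribosomal intron hosts (middle) and 86 ribosomal protein hosts (right); each line joins the 2 libraries of a strain, with dashed lines for prp43-1 strains, and points are set slightly apart sideways. In the left panel all 6 strains are higher at 37 °C, in the middle 3 of 6 and on the right 0 of 6. In the middle panel 1 form holds 7006 of the 16364 reads.

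The 3 libraries of strains with intact PRP43 held 67 member reads on 35 forms at 25 °C and 182 reads on 51 forms at 37 °C, which was 0.0643% and 0.161% of their coding-host reads. The 3 prp43-1 libraries held 74 reads on 38 forms and 78 on 36, which was 0.0585% and 0.0917%, since their coding-host reads numbered 126415 at 25 °C and 85083 at 37 °C. The pooled share was thus higher at 37 °C with either allele. Pair by pair, the prp43-1 allele went with a lower share in 5 of 6 comparisons, and the log2 difference averaged -0.50 ± 0.61 (SD, n = 6). The exception was set2Δ at 25 °C, at 0.10, and the lowest was the wild-type background at 37 °C, at -1.63. The other non-ribosomal intron hosts stood at -0.58 ± 0.69. Relative to the forms of all other intron genes, ribosomal protein genes included, the member difference was 0.02. As a share of coding-host reads, the member difference was -0.19 without the wild type or without prp43-1. Without the 3 strains with alpha-specific reads that difference was -1.12 (n = 2).

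For the set1 deletion the mean log2 difference in member share was 0.18 ± 0.72 (n = 4 pairs, 3 higher) and for the set2 deletion 0.09 ± 0.68 (n = 4 pairs, 2 higher). Here both spreads were larger than the means. Without prp43-1 or without the matching double mutant the means were -0.20 for set1 and -0.46 for set2. Without the wild type they were 0.56 and 0.64. Relative to the forms of all other intron genes, ribosomal protein genes included, the set1 mean was 0.68 ± 0.48 (3 of 4 pairs higher). The set2 mean on that scale was -0.30 ± 0.41, with 1 of 4 higher. Without the strains with alpha-specific reads the set1 mean was 0.56 (n = 2 pairs).

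In the next sentences the reads of a form in the 6 libraries of a temperature are given in the order wild type, set1Δ, set2Δ, prp43-1, set1Δ prp43-1 and set2Δ prp43-1. The 145 nt form of NYV1 (chrXII:327255-327399) had 0, 1, 0, 0, 0 and 0 reads at 25 °C and 5, 2, 4, 2, 0 and 5 at 37 °C. The 311 nt form of ACT1 (chrVI:54376-54686) had 0 reads in all 6 libraries at 25 °C and 12, 3, 1, 0, 0 and 1 at 37 °C. Of the reads of these tandem forms, 18 of 19 and 17 of 17 came from 37 °C, and 12 of the 17 ACT1 reads came from the wild type. The 60 nt form of SUS1 had 0, 0, 1, 0, 1 and 0 reads and then 7, 0, 1, 0, 2 and 3.

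Other downstream acceptors were read at both temperatures. ARP2's 134 nt form (chrIV:399362-399495) had 0, 0, 0, 0, 2 and 2 reads at 25 °C and 1, 5, 1, 3, 2 and 1 at 37 °C, so that each library at 37 °C held at least 1. SAR1's 143 nt form (chrXVI:138726-138868) had 0, 2, 1, 1, 1 and 1 reads and then 3, 2, 3, 0, 2 and 0, so that 9 libraries held it. The upstream acceptor of UBC13 (151 nt, chrIV:629906-630056) had 1, 0, 1, 0, 2 and 2 reads and then 2, 0, 1, 2, 4 and 2. UBC13's form too was in 9 libraries, the highest number for any member form, and for these 3 forms the temperatures overlapped. The 103 nt form of LSM7 had 10 reads, 6 of them in the wild type at 37 °C.

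The long COX5B form (216 nt, chrIX:155223-155438) had 0, 1, 0, 4, 0 and 0 reads at 25 °C and 12, 1, 8, 0, 0 and 0 at 37 °C. Its 26 reads therefore came from 5 libraries, and 20 from the wild type and set2Δ at 37 °C, while the 3 prp43-1 libraries at 37 °C had none. The 211 nt COX5B form with the end 5 nt upstream was in the wild type and set2Δ at 37 °C (2 reads each) and in prp43-1 at 25 °C (1 read), which are libraries that also held the long form. The 74 nt form, whose end lies 14 nt inside the intron, had 10 reads in 7 libraries.

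The exon skips were read at both temperatures. The VMA9 skip (254 nt, chrIII:107034-107287) had 1, 4, 1, 1, 4 and 0 reads at 25 °C and 0, 3, 0, 0, 0 and 3 at 37 °C. The DYN2 skip (199 nt, chrIV:1319618-1319816) had 0, 0, 0, 1, 5 and 0 reads and then 3, 3, 2, 0, 2 and 0. The 34 nt form in the ACT1 coding sequence (chrVI:54200-54233), with neither splice site, had 1, 1, 3, 0, 1 and 1 reads and then 4, 1, 1, 0, 1 and 0. TUB3's 294 nt form had 9 of its 10 reads at 25 °C.

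Among the remaining forms of the 25 with the most reads, HNT1's 112 nt form and ACT1's 72 nt form had 13 reads each, the former with ends within a few bases of both annotated sites. LSM2's 81 nt form had 9 reads. NYV1's 131 nt form, which ends in CAT 10 nt upstream of the annotated site, and TAD3's 63 nt form had 7 each. The 86 nt form of KIN28, the 90 and 68 nt forms of RUB1, the 30 nt form of ACT1, the 211 nt form of COX5B and the 168 nt form of COF1 had 5 each. ARP2's 129 nt form had 4, all in set1Δ prp43-1 at 37 °C.

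**Figure D4:**
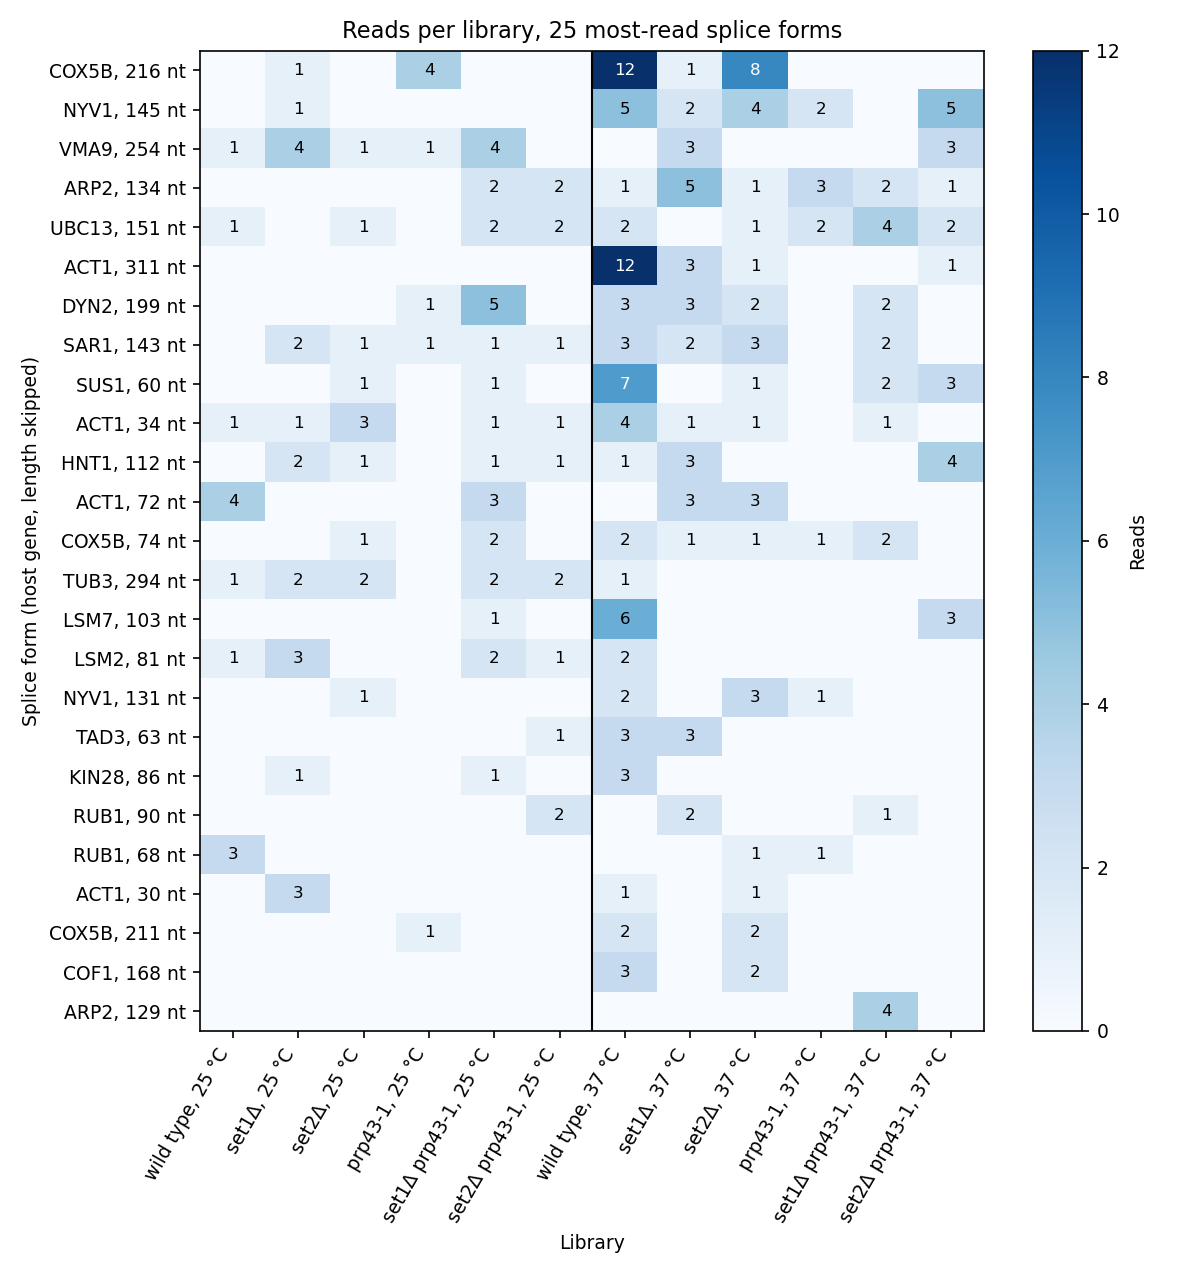
Reads of the 25 member forms with the most reads (rows, named by host gene and length skipped) in the 12 libraries (columns, 25 °C left of the line and 37 °C right of it); the colour scale and the printed numbers are reads, and empty cells are 0. The ACT1 311 nt and COX5B 216 nt forms reach 12 reads in the wild type at 37 °C.

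The factors were tested with edgeR's quasi-likelihood test in an additive model of set1, set2, prp43 and temperature over the 12 libraries, fitted on all features of the table with at least 10 reads in total, with Benjamini-Hochberg adjustment over all of them and a threshold of 0.05. Of 1440 splice forms tested, 15 belonged to the 50 genes, from 12 of them. Of 391 host sums, which add the reads of all forms of a host, 16 did. Where several members of a role group could be tested, they were few: 6 forms for the cytoskeleton, 3 for trafficking, 2 each for mitochondria and RNA, and 1 each for ubiquitin and metabolism.

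Temperature changed 1 member at the host level, NYV1. Its summed reads were 0, 1, 1, 0, 0 and 0 at 25 °C and 8, 6, 7, 3, 0 and 5 at 37 °C in the strain order above, 2 against 29 in all. Each strain but set1Δ prp43-1, which had no read at either temperature, was higher at 37 °C, and the groups overlapped only through that strain. The log2 fold change was 3.66 (SE 1.05, edgeR adjusted p = 0.0201), and the ratio of counts, scaled by the TMM-normalised library sizes of the host fit, was 17.6 with an exact 95% interval of 4.45 to 152 that covers counting error only. It was called by edgeR as 1 of 16 member hosts, beside 3.32% of all 391 hosts called for temperature, 9 higher and 4 lower. With DESeq2 NYV1 was called too, and 2 of 16 member hosts had an unadjusted edgeR p below 0.05, beside 15.9% of all hosts, the other being ARP2 (log2 fold change 2.53, SE 1.11, adjusted p = 0.198).

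The NYV1 call rested on few reads. It was lost when any 1 of 8 of the 12 libraries was left out, with an edgeR adjusted p of 0.0505 to 0.123: both wild-type, set2Δ and set2Δ prp43-1 libraries, prp43-1 at 25 °C and set1Δ at 37 °C. It was also lost without TMM factors (edgeR adjusted p = 0.104), without the filter (0.0628) and without the 3 strains with alpha-specific reads (0.475). Over all alternatives that gave a value, the log2 fold change was 3.17 to 4.53 and the adjusted p 0.0162 to 0.475.

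At the level of single forms edgeR called 0 of 15 member forms for temperature, beside 3.54% of 1440 forms, and DESeq2 called 0. The unadjusted p was below 0.05 for 3 of 15 member forms, beside 16.8% of all forms. These were the ACT1 311 nt form (log2 fold change 4.29, SE 1.41, edgeR adjusted p = 0.0605), the NYV1 145 nt form (3.40, SE 1.20, adjusted p = 0.0696) and the SUS1 60 nt form (2.35, SE 1.19, adjusted p = 0.295). The ACT1 form had 0 reads at 25 °C, and 3 reads over the 6 libraries were taken as the limit that a count of 0 allows. With that limit the ratio was 6.35 on the TMM-normalised library sizes of the form fit. This value takes the 17 reads at 37 °C as exact, of which 12 came from the wild type, so it is not the lower end of an exact interval. On the same library sizes the count ratio was 20.2 (exact interval 3.18 to 840) for the NYV1 form and 7.28 (1.65 to 66.5) for the SUS1 form. The fitted direction was higher at 37 °C in 12 of 15 member forms and 13 of 16 member hosts, with median log2 fold changes of 1.13 and 1.18, against 0.01 and 0.33 over all forms and hosts tested and 0.63 and 0.87 over those of the other non-ribosomal intron genes. The same tally over all features is not given here. The filter used the total over both temperatures, so a form could pass on its reads at 37 °C alone. The ACT1 311 nt form did so (0 reads at 25 °C, 17 at 37 °C), while the VMA9 254 nt form (11 and 6) passed on its 25 °C reads. Host sums contain the reads of the forms, so the tallies of forms and hosts are not separate results. The cytoskeleton forms ranged from -2.32, for TUB3, to 4.29, for ACT1.

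For the prp43-1 allele edgeR called 0 of 15 member forms, beside 2.92% of all forms, and 0 of 16 member hosts, beside 5.12% of all hosts. DESeq2 called none, and the unadjusted edgeR p was below 0.05 for 0 member forms and 1 member host, beside 159 of all 1440 forms and 51 of all 391 hosts. That host was ACT1, with 6, 7 and 5 reads at 25 °C and 17, 8 and 8 at 37 °C in the wild type, set1Δ and set2Δ, and 2, 7 and 1 and then 3, 2 and 1 in the matching prp43-1 strains. Its prp43-1 count, not corrected for library size, was at or below that of its partner in each of the 6 pairs. The log2 fold change was -1.45 (SE 0.65, edgeR adjusted p = 0.253). Of the 67 ACT1 reads, 38 lay on forms outside its intron, so the host sum is mostly not about that intron. The median log2 fold change was -0.49 over the member forms and 0.01 over the member hosts, against -0.07 and -0.11 over all.

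The interaction of prp43-1 with temperature, fitted in a model of its own, gave 0 member forms by edgeR, beside 0.0694% of all forms, and 0 member hosts, beside 0.256% of all hosts. DESeq2 also called 0, and the unadjusted edgeR p was below 0.05 for 2 member forms and 2 member hosts, in each case COX5B and DYN2, beside 7.36% of all forms and 6.39% of all hosts. The edgeR adjusted p was 0.302 for the 216 nt COX5B form and 0.56 for the DYN2 exon skip. In COX5B as a host the reads went from 0, 1 and 1 to 17, 2 and 12 in the wild type, set1Δ and set2Δ, and from 5, 2 and 0 to 1, 2 and 0 in the prp43-1 partners. The host's log2 interaction was -4.17 (SE 1.77, edgeR adjusted p = 0.46).

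For the set1 deletion edgeR called 0 member forms, beside 0.139% of all forms, and 0 member hosts, beside 0.512% of all hosts. For the set2 deletion it called 0 member forms, beside 0.208%, and 0 member hosts, beside 0.256%. DESeq2 called 0 in each, and the unadjusted edgeR p was below 0.05 for 1 member form, the 216 nt form of COX5B under set1 (log2 fold change -3.01, SE 1.29, adjusted p = 0.993), and for no member under set2. The 45 relatives without introns had 5 hosts that could be tested, of which 0 were called by edgeR for temperature or prp43-1.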

How the data were processed

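The 50 genes, their role groups and the list of relatives were chosen with earlier results of these data known. The authors deposited a table of unannotated splice forms with whole-number read counts for the 12 libraries and a p-value per form whose meaning the deposited table does not state. STAR 2.4.0, CASAVA and the build sacCer3 are named in the submitters' processing notes, and their settings are not given in the sources used here. The counts were used as deposited. Form ends were compared with the RefSeq annotation of R64, the same build, and sequences were read from that genome. Named forms are every member form or host past the threshold and the 25 forms with the most reads.

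The tests used edgeR 4.0.16 in R 4.3.3 on all forms and host sums with at least 10 reads in total, with TMM factors, and DESeq2 1.42.0 as an alternative. With 1 library per genotype and temperature, the spread came from the residuals of the additive model over 12 libraries, so a p-value assumes that the factors add up and does not measure the spread between cultures. The biological coefficient of variation was 40.3% for forms and 48.4% for hosts. Intervals are 95% Wilson intervals for shares and exact intervals for count ratios, and cover counting error only. The limit that a count of 0 allows was set at 3 reads. The scripts were tested on simulated data.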

Additional observations from a re-analysis of the deposited data

How the results depend on the processing

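The factors' counts of called members were 0 under every alternative tried for prp43-1, its interaction with temperature, set1 and set2. Under filterByExpr no member form was tested, and no member host for prp43-1, set1 or set2, so those counts could only be 0. The temperature count at the host level was 0 in place of 1 under filterByExpr, which tested no member host, without TMM factors, without a filter on low counts, and without the strains with alpha-specific reads. It was 0 to 1 when a library or strain was left out. At the form level it was 1 in place of 0 with library sizes from coding hosts (ACT1 311 nt, edgeR adjusted p = 0.0481) and 0 to 1 when a library or strain was left out. Those calls were NYV1 145 nt without set1Δ at 25 °C (edgeR adjusted p = 0.0388) or both set1Δ libraries (0.0344), and ACT1 311 nt without set2Δ at 37 °C (0.0461). The edgeR adjusted p ranged over the alternatives that gave a value from 0.0461 to 0.648 for the ACT1 form and from 0.0344 to 0.324 for the NYV1 form. Without the wild type at 37 °C, which held 12 of its 17 reads, the ACT1 form fell below 10 reads and was not tested. The cause was not tested.

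The higher member share at 37 °C kept its direction, at 0.85 to 1.17 (mean log2) with a strain left out. The prp43-1 mean ran from -0.74 to -0.19 with a strain left out, was -1.12 without the strains with alpha-specific reads and turned to 0.02 relative to other intron genes. With a strain left out the set1 mean ran from -0.20 to 0.56, and it was 0.68 relative to other intron genes. The set2 mean ran from -0.46 to 0.64 with a strain left out, and was -0.30 relative to other intron genes. GT and AG ends went from 50.4% to 66.7% among forms with 10 or more reads, and the branch sequence from 71.8% to 87.8% with 1 mismatch allowed.

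With strain as a replicate block, NYV1 stayed called for temperature as a host (log2 fold change 3.60, edgeR adjusted p = 0.0333), and the block changed no other member's call. Depth limits all of this: 116 of the 131 forms were below 10 reads. Without that filter 92 forms were tested for each factor and 0 called, and 39 forms had no read to test.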
